A study of Mus musculus with 400 samples.

Results

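Axon guidance ligands and receptors are the secreted and surface proteins by which growing axons, and later the mature neuron, read cues from neighbouring cells. The genes described here were taken by symbol from the 4 deposited tables, as every class 3 to class 7 semaphorin, A to D plexin, neuropilin, Eph receptor, ephrin, Robo, Slit, Unc5 and netrin gene and Dcc. This rule uses names only and found 69 genes among 24755 named genes. They comprise 20 semaphorins, 9 plexins, 2 neuropilins, 14 Eph receptors, 8 ephrins, 4 Robo receptors, 3 Slit ligands, 4 Unc5 receptors, 4 netrins and Dcc itself.

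The study sorted single tdTomato+ cells by flow cytometry (BD FACS Aria III) from dissociated cervical (C1-C8) dorsal root ganglia (DRG) of 6 naive mice aged 6 to 12 weeks, and sequenced each cell as its own library in 4 runs. All mice were Nav1.8-Cre R26CAG-floxStop-tdTomato (strain label Nav1.8-Cre.Ai14), in which Cre driven by the Nav1.8 gene Scn10a, active in most small sensory neurons, removes a stop cassette in front of tdTomato, so cells that never used Nav1.8-Cre were not collected. There was no second genotype or treatment, and every comparison was made between classes of neurons. Run 1 held Blue and Red, run 3 held Control1 and Control2, and the runs of Control (run 2) and Control6 (run 4) held no other mouse, so a mouse and its run cannot be told apart for runs 2 and 4.

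Levels are in CPM, the signal of a gene scaled to the total signal of its cell, with the ribosomal RNA gene Rn45s left out. Of 394 cells, 371 had 500 or more detected genes, and these were sorted into 5 classes by the level of 1 or 2 genes that are not axon guidance genes. The Mrgprd class (at least 200 CPM of Mrgprd, a receptor of non-peptidergic skin nociceptors) was the most numerous, with 29.9% of the 371 cells. The Mrgpra3 class (at least 50 CPM of an itch receptor) held 44 cells, and the Sst/Nppb class (at least 100 CPM of either neuropeptide gene of another itch neuron) held 45 cells. The Th class (at least 100 CPM of tyrosine hydroxylase, a marker of C-fibre touch neurons) held 39 cells. The Calca class (at least 2000 CPM of the CGRP gene, a marker of peptidergic neurons, with none of the other gates passed) held 98 cells. Of the remaining cells, 3 passed 2 or more of the first 4 gates and 31 passed none, and they entered no comparison. A mouse was 1 replicate, as the mean over its cells of a class, where it had at least 3 such cells. This gave 6 mice for the Mrgprd and Calca classes, 4 for Sst/Nppb (Blue, Red, Control and Control1) and only Blue and Red for Mrgpra3 and Th. Values by mouse are given in that order throughout, and as the lowest to the highest mouse with the median where there were 6.

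In the nervous system these genes form a few signalling pairs. Class 3 semaphorins are secreted and bind neuropilins, which lack signalling domains of their own and hand the signal to A-type plexins. Sema3e instead binds Plxnd1 directly, and the membrane-anchored Sema7a binds Plxnc1. Ephrins bind Eph receptor kinases and can signal in both directions, Slits bind Robo receptors, and netrins bind Dcc and Unc5 receptors. In sensory ganglia they are best known for steering the axons to skin and spinal cord before birth, and many stay on in the adult.

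For Sema7a with Plxnc1 and Sema3e with Plxnd1, the ligand was high and the receptor low in the Th class. Details are given further on, and Plxnc1 was low in Calca too. The pattern was not limited to these genes. The ephrin genes Efna5 and Efnb1 were also higher in Th, with class means of 137 and 56.7 CPM. Of the Eph receptor genes, Epha5 was at 1.11 CPM there (lower, adjusted p = 0.1, limma) and Ephb6 at 4.39 CPM (lower, adjusted p = 0.023, limma). Ephb2 instead had its highest class mean in Th, at 8.72 CPM. Slit1 and the Slit receptor gene Robo2 did not show this pattern, with class means of 75.9 and 199 CPM in Th. The bases just upstream of the transcription start are shown for Plxnc1, Plxnd1 and Sema7a. They are in GRCm38.p6 from RefSeq, 5′ to 3′ on the strand of the gene, with CG dinucleotides in capitals. The Plxnc1 stretch is chr10:94944846-94945095 on the minus strand, the Plxnd1 stretch is chr6:115995006-115995255 on the minus strand and the Sema7a stretch is chr9:57939862-57940111 on the plus strand.
Plxnc1: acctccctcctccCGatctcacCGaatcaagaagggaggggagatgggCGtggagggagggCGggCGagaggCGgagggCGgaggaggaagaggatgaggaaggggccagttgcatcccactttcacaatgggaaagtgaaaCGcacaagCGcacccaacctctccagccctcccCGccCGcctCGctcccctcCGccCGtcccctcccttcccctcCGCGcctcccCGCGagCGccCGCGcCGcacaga
Plxnd1: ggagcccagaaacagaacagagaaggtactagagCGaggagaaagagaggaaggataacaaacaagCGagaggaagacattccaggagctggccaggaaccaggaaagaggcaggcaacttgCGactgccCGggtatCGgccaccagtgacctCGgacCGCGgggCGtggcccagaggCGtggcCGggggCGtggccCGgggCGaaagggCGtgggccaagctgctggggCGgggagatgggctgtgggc
Sema7a: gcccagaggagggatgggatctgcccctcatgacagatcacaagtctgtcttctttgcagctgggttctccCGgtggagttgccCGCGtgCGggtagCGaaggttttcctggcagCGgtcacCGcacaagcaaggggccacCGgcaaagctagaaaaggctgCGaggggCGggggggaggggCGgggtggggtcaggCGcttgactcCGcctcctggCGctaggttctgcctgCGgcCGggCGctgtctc
These 250 bases held 22 CG dinucleotides for Plxnc1, 16 for Plxnd1 and 17 for Sema7a. Over windows of 300 bases (250 before the start and 50 from it on), the 75 promoters of the 59 genes of the set that have one held a median of 19 CG dinucleotides, against 7 over all 32851 promoters. RUNX factors divide sensory neurons into classes, so their core motif was searched on both strands. The letters TGTGGT occurred in 9 of the 75 windows (12%) and in 16.8% of all windows, and none of the 3 promoters shown held them. The TATA box letters TATAAA occurred in 2 of the 75 (2.67%) and in 13.6% of all.

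Median depth was 46149 recovered counts per cell in the Mrgprd class, 39368 in Mrgpra3, 17050 in Sst/Nppb, 32443 in Th and 20617 in Calca, so absence is least certain in the Sst/Nppb and Calca classes. Neuronal markers (Snap25, Uchl1, Tubb3, Rbfox3 and Scn10a) summed to 5765 to 6579 CPM in every class. Scn10a, the gene behind the Cre used for sorting, ranged from 261 CPM in Th to 988 CPM in Mrgprd. Markers of the Mrgprd neuron summed to 1498 CPM in its class and at most 18.8 CPM in the others. Markers of the Th touch neuron summed to 1748 CPM in its class and at most 18.3 CPM elsewhere. These sums include the gate genes, Mrgprd at 695.7 CPM and Th at 812.5 CPM, a part fixed by the gates. Apart from them, Lpar3 and Prkcq were at 546.4 and 256.2 CPM in Mrgprd and at most 15.6 CPM elsewhere. Slc17a8, Cckar and P2ry1 were at 163.6, 249 and 522.5 CPM in Th and at most 10.96 CPM elsewhere. Markers of the Mrgpra3 neuron other than its gate gene, Mrgprx1 and Mrgpra1, were at only 8.29 and 2.10 CPM in its class. Peptidergic markers also summed to 4604 CPM in the Mrgpra3 class, nearly all of it the gate gene Calca at 4583 CPM. Tac1 and Adcyap1 were at 10.3 and 10.8 CPM there, and Gal at 0 CPM. Of the 47 cells passing the Mrgpra3 gate, 36 passed the Calca gate as well. In Th the sum was 1698 CPM (Calca 1070 and Tac1 504.8 CPM), and 5 of 39 cells passed the Calca gate. Satellite glial markers summed to 307 CPM in Sst/Nppb, 514 in Mrgprd, 714 in Mrgpra3, 908 in Th and 1393 in Calca. Schwann cell markers were highest in the Th class at 1899 CPM, of which Pmp22 made up 1500 CPM and Mbp 370 CPM. Mural cell markers were at 614 CPM in the Th class and 407 CPM in Mrgpra3, nearly all of it Rgs5, while the smooth muscle gene Acta2 was at 0.0979 and 0.742 CPM. Markers of fibroblasts were at 13.9 to 65.6 CPM, of erythroid cells at 1.11 to 21.4 CPM, and of endothelium and macrophages at or below 1.72 CPM. The part of these other markers in the results was not tested, other than by a repeat on cells with under 500 CPM of satellite glial markers.

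Of the 69 genes, 25 had a mean of at least 10 CPM over the 20 means of a mouse and class and were tested, and 44 did not. Passing were both neuropilins, 7 of 9 plexins, 8 of 20 semaphorins, 3 of 8 ephrins, 2 of 14 Eph receptors, 1 of 4 Robo receptors, 1 of 3 Slits and 1 of 4 Unc5 receptors, and no netrin. A test for any difference among the 5 classes (limma's moderated F test with the mouse as a block, adjusted over 9148 genes) called all 25, against 29.8% of all genes tested. A gene expressed in 1 class only passes the 10 CPM filter through that class, so this count is in part set by the filter. With no filter on low values, 28 of the 62 genes of the set with any signal were called, against 19% of 17010 genes. The heat map of the 25 genes shows blocks that follow the classes: Plxnc1 and Nrp1 change from class to class, while mice of 1 class spread widely for some genes, such as Sema5a in Calca.

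**Figure D1:**
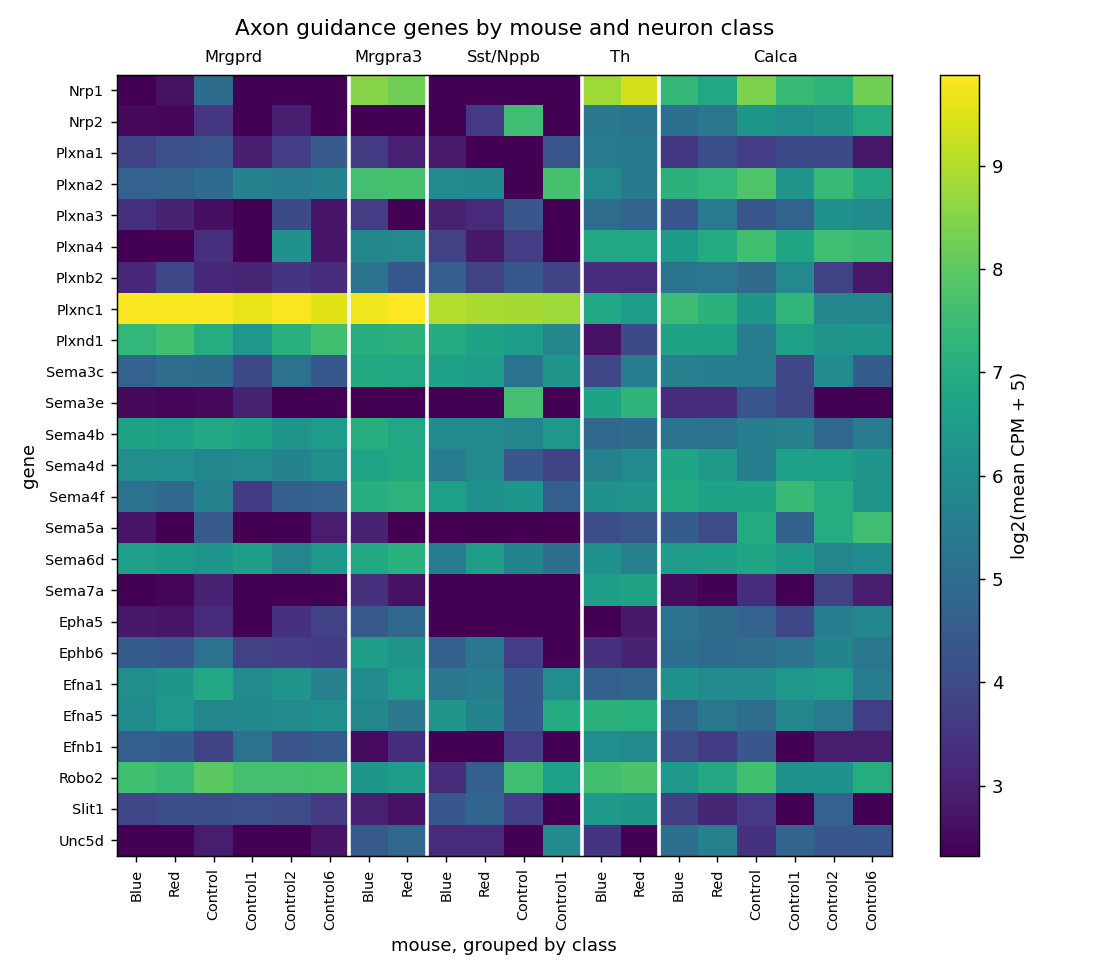
Mean level of the 25 tested axon guidance genes (rows) in each mouse (columns, grouped by class), as log2(mean CPM + 5), with the colour scale at the right. Plxnc1 is brightest in the Mrgprd and Mrgpra3 classes, Nrp1 is dark in the Mrgprd and Sst/Nppb classes, and Sema7a is bright only in the Th columns.

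Differences below are on the scale log2(mean CPM + 5), which understates the change of low genes, and a difference from a class at 0 is no bound. Each class was compared with the mean of the other 4 on that scale, and all 10 pairs of classes were compared as well. All p-values are from limma, adjusted by the Benjamini-Hochberg method over all genes tested in the comparison. The comparisons share the same cells, so they are not independent of each other. The Mrgprd contrast called 12 of the 25 genes, against 13.6% of all genes (3 higher, against 7.52%, and 9 lower, against 6.05%). The Mrgpra3 contrast called 3, against 3.04% (all higher, against 1.76%, where 1.28% were lower). The Sst/Nppb contrast called 11, against 23% (2 higher, against 7.35%, and 9 lower, against 15.7%). The Th contrast called 13, against 9.03% (8 higher, against 4.77%, and 5 lower, against 4.26%). The Calca contrast called 10, against 12.8% (7 higher, against 7.98%, and 3 lower, against 4.78%). These counts too are in part set by the filter, which a gene high in 1 class can pass through that class. With no filter, 15 of 62 genes of the set were called in Th (6.16% of all genes) and 13 in Calca (8.18%). The other unfiltered counts were 8 in Mrgprd (7.56%), 5 in Mrgpra3 (2.37%) and 12 in Sst/Nppb (12.4%). Between single classes, the Mrgprd and Calca classes differed in the most genes of the set, 14 of 25, against 19.8% of all genes. Sst/Nppb and Th differed in 13 (15.9%), and Th differed from Mrgprd in 11 (8.24%), from Mrgpra3 in 11 (6.95%) and from Calca in 10 (6.97%). Sst/Nppb differed from Calca in 10 (22.3%), from Mrgprd in 9 (21.4%) and from Mrgpra3 in 7 (7.61%). The fewest calls were between Mrgpra3 and Mrgprd, 5 (4.12%), and between Mrgpra3 and Calca, 4 (5.32%). The median difference of the 25 genes was -0.60 in the Mrgprd contrast (0.07 over all genes), 0.79 in Mrgpra3 (-0.01), -0.58 in Sst/Nppb (-0.16), -0.15 in Th (0.04) and 0.52 in Calca (0.06). The 49 calls fell on 23 genes, and Plxna2 and Plxnb2 passed only the F test. Since the Th and Mrgpra3 classes rest on Blue and Red, leaving out either leaves 1 mouse in each, assumed to vary like the others. Without Blue the calls fell to 3 in Th (1.53% of all genes were called there), 0 in Mrgpra3 (0.0436%), 5 in Mrgprd (5.71%), 2 in Sst/Nppb (9.53%) and 5 in Calca (5.59%). Without Red they fell to 3 in Th (1.22%), 0 in Mrgpra3 (0.0654%), 5 in Mrgprd (5.83%), 5 in Sst/Nppb (9.23%) and 5 in Calca (4.83%). With all mice, edgeR on recovered counts called 17 in Mrgpra3 (13.8%). Without Control or Control1 the Mrgpra3 calls rose to 9 each (5.05% and 4.88%). No call changed direction in any of 19 settings.

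Of the 25 genes, Nrp1 had the smallest F test p-value (adjusted p = 3.3e-10). Nrp1 (chr8:128358604-128503363, plus strand), the co-receptor for Sema3a and also a receptor for VEGF, was high in the Th and Mrgpra3 classes, intermediate in Calca and nearly absent from Mrgprd and Sst/Nppb. Its level was 445 and 669 CPM in Th cells of Blue and Red and 356 and 296 CPM in their Mrgpra3 cells. In the Calca class it was 108.8 to 332 CPM (median 163), in Mrgprd 0 to 27.1 CPM (median 0) and in Sst/Nppb 0 CPM in all 4 mice. No mouse of the 3 high classes overlapped any mouse of the 2 low ones. A count of Nrp1 was found in 38 of 39 cells of the Th class (97.4%, exact 95% interval 86.5 to 99.9%), 33 of 44 in Mrgpra3, 52 of 98 in Calca and 3 cells in Mrgprd (2.703%, 0.561 to 7.70%), intervals that cover counting error only. None of the 45 Sst/Nppb cells had one, which allows a share of up to 6.67%. With each cell thinned to 10000 counts the shares were 97.4% in Th, 76.7% in Mrgpra3, 49.5% in Calca, 1.90% in Mrgprd and 0 of 39 cells in Sst/Nppb. Nrp1 was higher in Th by 4.04 ± 0.47 (SE, adjusted p = 6.9e-06), in Mrgpra3 by 3.11 ± 0.47 (SE, adjusted p = 0.0005) and in Calca by 1.83 ± 0.32 (SE, adjusted p = 0.00047). It was lower in Sst/Nppb, with a difference of -4.86 ± 0.36 (SE, adjusted p = 6.0e-09), and in Mrgprd, with -4.12 ± 0.32 (SE, adjusted p = 3.1e-08). Among the high classes, Th exceeded Calca by 1.77 ± 0.53 (SE, adjusted p = 0.047), whereas Mrgpra3 and Calca, at 1.03 ± 0.53 (SE, adjusted p = 0.43), and Mrgpra3 and Th, at -0.74 ± 0.59 (SE, adjusted p = 0.74), were not told apart. The Mrgpra3 call was lost without Blue, at 2.93 (adjusted p = 0.27), or Red, at 3.29 (adjusted p = 0.19). The Calca call was lost when values were averaged on the log scale over cells, at 0.38 (adjusted p = 0.58), a class in which nearly equal numbers of cells did and did not have a count. The Mrgprd call was not made by edgeR on the recovered counts, at -2.98 (adjusted p = 1).

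Nrp2 (chr1:62703285-62818695, plus strand), the co-receptor for Sema3f, was found in the Th and Calca classes only, among the mice in the comparison, apart from single cells. It stood at 35.7 and 32.4 CPM in Th and 29.02 to 116.7 CPM (median 67.1) in Calca, against 0 to 6.43 CPM (median 0.45) in Mrgprd. Both Mrgpra3 means were 0 CPM, although that class had the second highest depth. The Sst/Nppb values were 0, 7.13, 183 and 0 CPM. The third of these, from mouse Control, rests on few counts: 3 of the 45 Sst/Nppb cells had a count, and in the Control mouse most of the mean came from 1 count in a cell with only 1412 counts, where 1 count equals 701 CPM. Nrp2 was higher in Calca by 2.04 ± 0.47 (SE, adjusted p = 0.0048) and lower in Mrgprd, with -2.11 ± 0.47 (SE, adjusted p = 0.0034). These calls were lost without Blue, at 2.10 (adjusted p = 0.073) for Calca and -2.24 (adjusted p = 0.051) for Mrgprd, and without Red, at 1.96 (adjusted p = 0.13) and -2.31 (adjusted p = 0.055). The Th difference of 2.06 ± 0.68 (SE, adjusted p = 0.068) did not pass. Within cells, 35 Calca cells had counts of both neuropilins, 17 of Nrp1 only, 1 of Nrp2 only and 45 of neither. In the Th class 19 cells had both and 19 only Nrp1, and in the Mrgpra3 class 32 had only Nrp1 and 1 had both. Nrp2 thus occurred without Nrp1 in 1 cell of these 3 classes together, but in 5 of the 6 Mrgprd cells and all 3 Sst/Nppb cells with a count of Nrp2.

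**Figure D2:**
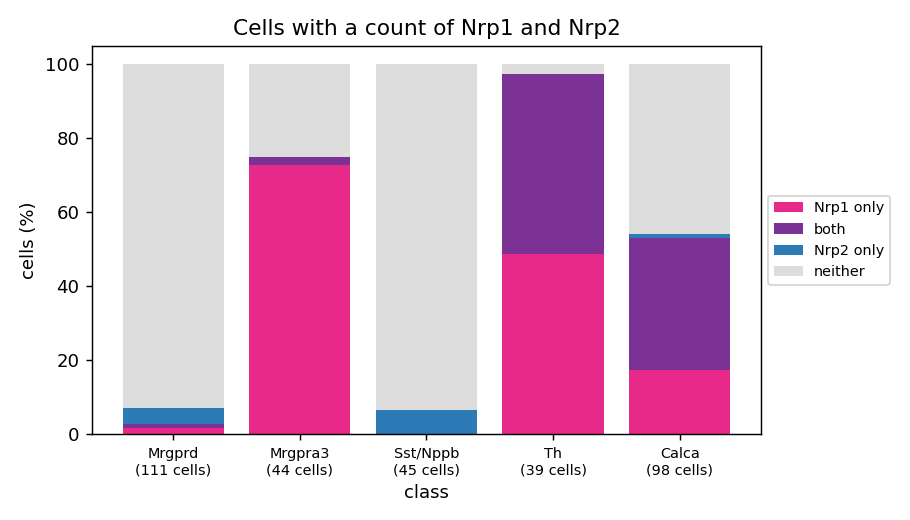
Share of cells (%) in each class with a count of Nrp1 only, of both neuropilins, of Nrp2 only or of neither, with the number of cells under each bar. Th cells had Nrp1 in 38 of 39 cells, Calca cells split into 52 with and 46 without it, and no Sst/Nppb cell had it.

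The A-type plexins carry the signal of neuropilins, and Plxna4 (chr6:32144268-32588192, minus strand) had the clearest class pattern among them. It stood at 109.8 and 111.7 CPM in Th, 50.03 and 54.4 CPM in Mrgpra3 and 82.5 to 186 CPM (median 145) in Calca. In Mrgprd it was 0 to 65.5 CPM (median 0.86) and in Sst/Nppb 8.86, 2.20, 7.84 and 0 CPM. Low and high classes did not overlap except for mouse Control2, whose 65.5 CPM in the Mrgprd class came from a class in which 5 cells had a count. By mean CPM the order of the classes was Calca, Th, Mrgpra3, Mrgprd and Sst/Nppb. On the log2 scale the order differed, with Th minus Calca at 0.24 and Mrgprd minus Sst/Nppb at -0.37. Neither the first 3 nor the last 2 classes were told apart from each other in any pair. Plxna4 was higher in Calca by 2.01 ± 0.36 (SE, adjusted p = 0.0005) and in Th by 2.31 ± 0.52 (SE, adjusted p = 0.0058), and lower in Mrgprd, at -2.91 ± 0.36 (SE, adjusted p = 7.9e-06), and Sst/Nppb, at -2.45 ± 0.39 (SE, adjusted p = 0.00013). The Th call was lost without Blue, at 2.36 (adjusted p = 0.28), or Red, at 2.26 (adjusted p = 0.4). The exons of Plxna4 share 110 bases with an antisense gene, and no source used here states the strand of counting.

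Plxna3 (chrX:74329066-74344689, plus strand), a partner of Nrp2 in Sema3f signalling, was at 27.7 and 22.8 CPM in Th and 14.8 to 63.99 CPM (median 29.7) in Calca. It was at 8.07 and 0 CPM in Mrgpra3, 3.30, 4.34, 15.7 and 0 CPM in Sst/Nppb and 0 to 11.2 CPM (median 2.54) in Mrgprd. The classes overlapped at the edges. It was higher in Calca by 1.43 ± 0.36 (SE, adjusted p = 0.011), a call lost without Red at 1.04 (adjusted p = 0.4), and lower in Mrgprd by -1.23 ± 0.36 (SE, adjusted p = 0.028). The Mrgprd call was among the least stable of all, lost without Blue, at -1.12 (adjusted p = 0.31), Red, at -1.55 (adjusted p = 0.12), or Control6, at -1.10 (adjusted p = 0.07), and in 14 of 19 settings in all. Plxna1 (chr6:89316314-89362620, minus strand), another A-type plexin, was at 37.1 and 36.4 CPM in Th and did not exceed 17.6 CPM in any mouse of another class, and the Th difference was 1.96 ± 0.56 (SE, adjusted p = 0.03). That call was lost without Blue, at 1.97 (adjusted p = 0.67), or Red, at 1.94 (adjusted p = 0.68), and its exons share 970 bases with an antisense gene, so reads of the pair cannot be told apart. Plxna2 had its highest means in Mrgpra3, at 196 ± 4.49 CPM (SD, n = 2), and Calca, at 144 ± 49.2 CPM (SD, n = 6), and its lowest in Mrgprd, at 33.3 ± 11.7 CPM (SD, n = 6). It passed the F test (adjusted p = 0.018) and the pair of Mrgprd and Calca, at -1.95 ± 0.52 (SE, adjusted p = 0.01), but none of the 5 class contrasts.

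Plxnc1 (chr10:94790866-94944835, minus strand), the receptor for Sema7a, separated the classes in the opposite way to Nrp1 except in Mrgpra3, where both were high. It was at 742 to 914 CPM (median 893) in Mrgprd, 834 and 936 CPM in Mrgpra3 and 506, 483, 455 and 429.8 CPM in Sst/Nppb. In Th it was 107.5 and 83.997 CPM and in Calca 50.3 to 177 CPM (median 107.7). Every mouse of the first 3 classes lay above every mouse of the last 2, and the Sst/Nppb mice lay below all Mrgprd and Mrgpra3 mice. Every cell of the Mrgprd, Mrgpra3 and Sst/Nppb classes had a count, against 33 of 39 Th and 68 of 98 Calca cells. The contrasts were 1.99 ± 0.18 (SE, adjusted p = 2.0e-07) in Mrgprd, 1.60 ± 0.26 (SE, adjusted p = 0.0011) in Mrgpra3 and 0.63 ± 0.20 (SE, adjusted p = 0.028) in Sst/Nppb. They were -2.34 ± 0.26 (SE, adjusted p = 5.3e-06) in Th and -1.88 ± 0.18 (SE, adjusted p = 7.8e-07) in Calca. Mrgprd exceeded Sst/Nppb by 1.09 ± 0.23 (SE, adjusted p = 0.0015), while Mrgprd and Mrgpra3, at 0.31 ± 0.30 (SE, adjusted p = 0.96), and Th and Calca, at -0.37 ± 0.30 (SE, adjusted p = 0.67), were not told apart. The Mrgprd, Th and Calca calls held in all 19 settings. The Mrgpra3 call was lost without Blue, at 1.78 (adjusted p = 0.12), or Red, at 1.42 (adjusted p = 0.43). The smaller Sst/Nppb call was lost without Blue, at 0.65 (adjusted p = 0.14), Red, at 0.65 (adjusted p = 0.17), or Control, at 0.54 (adjusted p = 0.088).

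Plxnd1 (chr6:115954811-115995005, minus strand), the receptor for Sema3e, was low in 1 class only. It was at 1.46 and 10.8 CPM in Th, against 76.8 to 188 CPM (median 145) in Mrgprd, 129 and 139 CPM in Mrgpra3 and 121.4, 99.6, 89.1 and 50.98 CPM in Sst/Nppb. In the Calca class it was 39.8 to 97.8 CPM (median 84.4). Neither Th mouse reached the lowest mouse of any other class, and 8 of 39 Th cells had a count against 37 of 45 in the shallower Sst/Nppb class. Plxnd1 was lower in Th, at -3.69 ± 0.34 (SE, adjusted p = 4.2e-07), in all 19 settings, and higher in Mrgprd, at 1.49 ± 0.24 (SE, adjusted p = 0.00014). In pairs, Th was below each of the other classes and Mrgprd above Calca by 0.83 ± 0.25 (SE, adjusted p = 0.022), while Mrgprd was not told apart from Mrgpra3, at 0.36 ± 0.38 (SE, adjusted p = 0.98), or Sst/Nppb, at 0.62 ± 0.29 (SE, adjusted p = 0.14). Plxnb2, a receptor for class 4 semaphorins, had its highest means in Calca, at 26.2 ± 18.8 CPM (SD, n = 6), and Mrgpra3, at 24.2 ± 11.4 CPM (SD, n = 2). It passed the F test (adjusted p = 0.045) but no class contrast, and its Calca mice spread from 2.06 to 54.4 CPM.

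**Figure D3:**
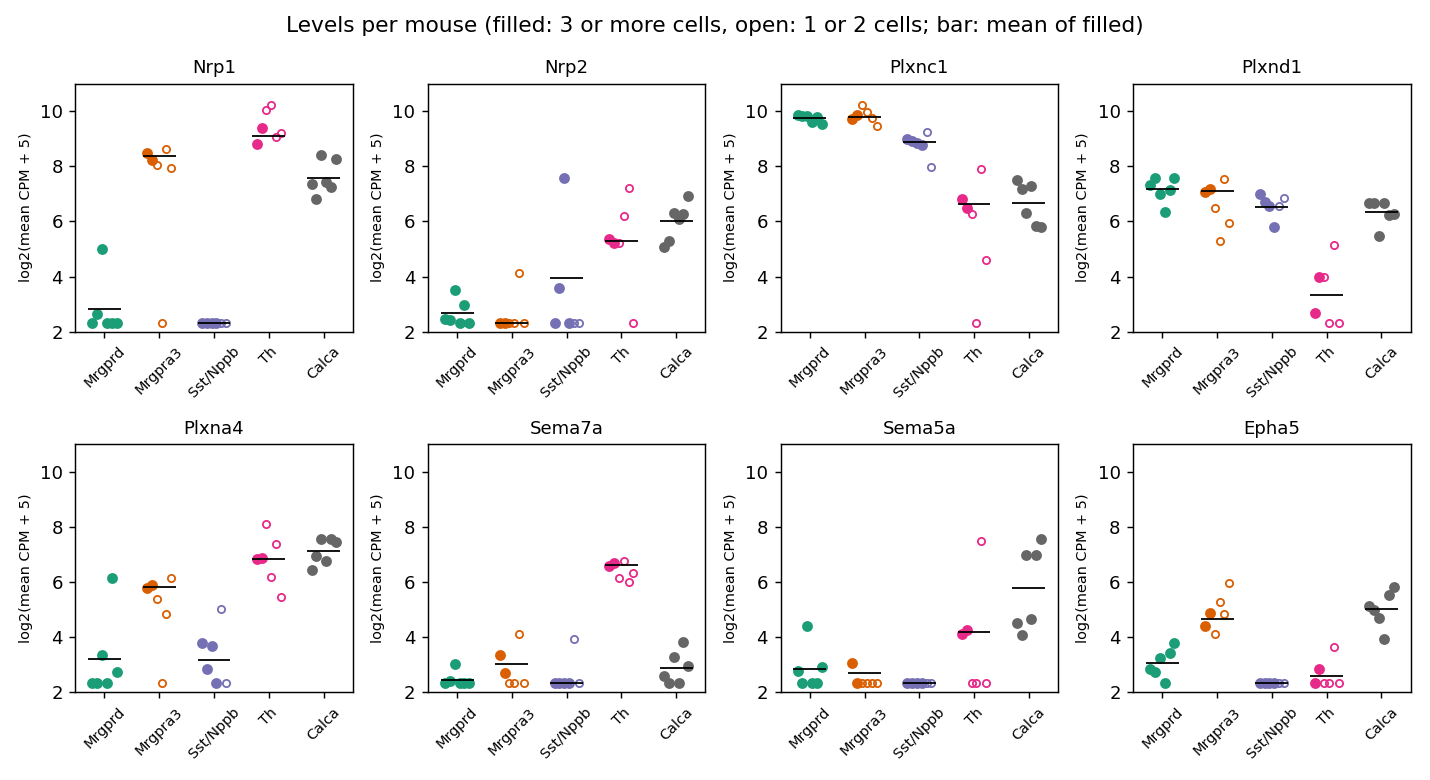
Level of 8 genes, as log2(mean CPM + 5), in each class. Each point is 1 mouse (filled, 3 or more cells and in the comparisons; open, 1 or 2 cells and not in them), and each bar is the mean of the filled points. The filled points of Plxnc1 and Nrp1 split the classes without overlap (1 open Mrgpra3 point of Nrp1 is at 0), Plxnd1 drops in Th alone, and Sema5a spreads widely between Calca mice.

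Sema7a (chr9:57940112-57962865, plus strand), the ligand of Plxnc1, was high in the Th class, where Plxnc1 was low. It was at 89.99 and 97.5 CPM in Th. No mouse of another class exceeded 9.09 CPM, which was Control2 in the Calca class, and the Sst/Nppb class was at 0 CPM in all 4 mice. A count was found in 35 of 39 cells of Th, in 6 of 98 Calca, 5 of 44 Mrgpra3, 3 Mrgprd and 1 of 45 Sst/Nppb cells. With every cell thinned to 10000 counts the shares were 46.2% of Th cells and at most 4.65% of any other class. The Th contrast was 4.08 ± 0.42 (SE, adjusted p = 1.5e-06), and it held in all 16 settings in which the gene was tested. Without Blue, without Red or with thinned cells it fell below the 10 CPM filter, which it passes through the Th mice (mean 10.76 CPM), and was not tested. Sema7a was called lower in Mrgprd, at -1.38 ± 0.29 (SE, adjusted p = 0.002), and Sst/Nppb, at -1.43 ± 0.32 (SE, adjusted p = 0.0026), contrasts in which the mean of the others includes Th; Mrgprd and Calca, at -0.42 ± 0.30 (SE, adjusted p = 0.4), were not told apart.

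Sema3e (chr5:14025276-14256689, plus strand), the ligand of Plxnd1, was likewise high in the Th class, where Plxnd1 was low. It was at 100.1 and 147 CPM in Th, 0 CPM in both mice in Mrgpra3 and 0 to 3.51 CPM (median 0.559) in Mrgprd. In Calca it was 0 to 15.1 CPM (median 4.81) and in Sst/Nppb 0, 0, 191 and 0 CPM. The value of mouse Control stands above both Th mice, but it rests on 1 count in each of 3 cells, and mostly on the same shallow cell as for Nrp2. A count was found in 33 of 39 cells of Th, 4 of 45 Sst/Nppb, 10 of 98 Calca, 4 Mrgprd and 0 of 44 Mrgpra3 cells, a 0 that allows up to 6.82%. The Th contrast was 4.38 ± 0.77 (SE, adjusted p = 0.00076). It was lost without Blue, at 4.64 (adjusted p = 0.094), or Red, at 4.11 (adjusted p = 0.19), and held with cells thinned to 10000 counts, at 4.40 (adjusted p = 1.3e-05), which leaves out the shallow cell. Sema3e was called lower in Mrgprd, at -1.62 ± 0.53 (SE, adjusted p = 0.049), a contrast in which the mean of the others includes Th. In pairs, Mrgprd was below Th, at -4.80 ± 0.86 (SE, adjusted p = 0.0008). It was not told apart from Mrgpra3, at -0.14 ± 0.86 (SE, adjusted p = 0.9998), Sst/Nppb, at -0.83 ± 0.66 (SE, adjusted p = 0.4), or Calca, at -0.72 ± 0.56 (SE, adjusted p = 0.45). The Mrgprd call was lost without Blue, at -1.83, Red, at -1.68, Control2, at -1.71 (adjusted p = 0.065), or Control6, at -1.71 (adjusted p = 0.065).

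Sema3c (chr5:17574281-17730268, plus strand), a secreted ligand of both neuropilins, was highest in the itch classes. It was at 115.3 and 109.05 CPM in Mrgpra3 and 95.3, 88.1, 31.9 and 71.8 CPM in Sst/Nppb. It was at 10.9 to 31.1 CPM (median 23.7) in Mrgprd, 10.3 to 57.3 CPM (median 40.7) in Calca and 10.6 and 40.8 CPM in Th. The Mrgpra3 mice lay above all others, but that contrast, at 1.43 ± 0.44 (SE, adjusted p = 0.098), did not pass, while Sst/Nppb, at 0.98 ± 0.34 (SE, adjusted p = 0.041), did. The Sst/Nppb call was lost without Blue, at 0.74 (adjusted p = 0.35), Red, at 1.15 (adjusted p = 0.15), or Control1, at 0.69 (adjusted p = 0.12). In pairs Mrgprd was below both Mrgpra3, at -1.85 ± 0.49 (SE, adjusted p = 0.036), and Sst/Nppb, at -1.49 ± 0.38 (SE, adjusted p = 0.0069). Th was also below Mrgpra3 (adjusted p = 0.021) and Sst/Nppb (adjusted p = 0.02). Calca was not told apart from either itch class. Mrgpra3 minus Calca was 1.38 ± 0.49 (SE, adjusted p = 0.14) and Sst/Nppb minus Calca 1.02 ± 0.38 (SE, adjusted p = 0.06).

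Sema4b (chr7:80186841-80226527, plus strand), a transmembrane class 4 semaphorin, followed Plxnc1 across the classes. It was at 128.3 and 110.5 CPM in Mrgpra3, 69.9 to 112.1 CPM (median 94.9) in Mrgprd and 54.6, 56.1, 48.8 and 76.5 CPM in Sst/Nppb. In Th it was 24.4 and 26.9 CPM and in Calca 24.4 to 44.05 CPM (median 34.4). Every Mrgprd, Mrgpra3 and Sst/Nppb mouse lay above every Th and Calca mouse. It was higher in Mrgpra3 by 1.28 ± 0.27 (SE, adjusted p = 0.0081) and in Mrgprd by 0.82 ± 0.18 (SE, adjusted p = 0.0039), and lower in Th, at -1.24 ± 0.27 (SE, adjusted p = 0.0043), and Calca, at -0.79 ± 0.18 (SE, adjusted p = 0.0056). The Calca call was lost when cells passing 2 gates were kept in both classes, at -0.06 (adjusted p = 0.95). All 4 calls were lost without Blue, at 1.17 (adjusted p = 1), 0.81 (adjusted p = 0.16), -1.15 (adjusted p = 0.5) and -0.76 (adjusted p = 0.2) in that order, and without Red, at 1.40 (adjusted p = 0.73), 0.81 (adjusted p = 0.16), -1.33 (adjusted p = 0.37) and -0.76 (adjusted p = 0.21).

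Sema4f (chr6:82911885-82939769, minus strand), a transmembrane semaphorin of neurons, was lowest in Mrgprd, at 7.75 to 44.5 CPM (median 22.9). It was at 128.4 and 144 CPM in Mrgpra3, 70.01 to 168 CPM (median 107.7) in Calca and 65.2 and 70.4 CPM in Th. In Sst/Nppb it was 91.1, 64.3, 72.9 and 19.4 CPM, and only there did mice overlap the Mrgprd range. The Mrgprd contrast was -1.58 ± 0.28 (SE, adjusted p = 0.00046), and the Calca contrast 0.98 ± 0.28 (SE, adjusted p = 0.024). The Calca call was lost without Blue, at 0.98 (adjusted p = 0.24), Red, at 1.17 (adjusted p = 0.15), or Control2, at 0.94 (adjusted p = 0.052).

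Sema4d (chr13:51685529-51793747, minus strand), the ligand of Plxnb1, was lowest in Sst/Nppb, at 39.5, 53.8, 16.2 and 9.69 CPM. It was at 102.5 and 114.2 CPM in Mrgpra3, 42.8 to 103.9 CPM (median 85.98) in Calca and 47.4 to 62.3 CPM (median 57.5) in Mrgprd. In Th it was 43.5 and 56.9 CPM, and Sst/Nppb mice overlapped the Th, Calca and Mrgprd ranges. The Sst/Nppb difference was -1.13 ± 0.28 (SE, adjusted p = 0.0054). It was lost without Blue, at -1.28 (adjusted p = 0.064), and with cells thinned to 10000 counts, at -0.08 (adjusted p = 0.98). Sema6d, a ligand of A-type plexins, was also lower in Sst/Nppb, at -0.71 ± 0.23 (SE, adjusted p = 0.034), with a mean of 51.3 ± 25.8 CPM (SD, n = 4) against 54.9 to 125.7 CPM in the other classes. That call was lost without Blue, at -0.53 (adjusted p = 0.37), Control, at -0.72 (adjusted p = 0.05), or Control1, at -0.54 (adjusted p = 0.097).

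Sema5a (chr15:32244810-32696341, plus strand), a transmembrane semaphorin with thrombospondin repeats, was highest in Calca and uneven there. Its Calca level was 186 CPM in Control6, 122.7 CPM in Control2 and 121.02 CPM in Control, against 20.6 CPM in Control1, 18.2 CPM in Blue and 11.8 CPM in Red. In Th it was 12.2 and 14.4 CPM, in Mrgprd 0 to 16.4 CPM (median 0.912), in Mrgpra3 3.45 and 0 CPM and in Sst/Nppb 0 CPM in all 4 mice. The 3 high Calca mice were of runs 2, 3 and 4, and only 25 of 98 Calca cells had a count. The Calca contrast was 2.36 ± 0.43 (SE, adjusted p = 0.00059) and it held in all 18 settings that tested the gene. In run 1 alone the gene fell below the filter and was not tested. The lower calls in Mrgprd, at -1.34 ± 0.43 (SE, adjusted p = 0.042), and Sst/Nppb, at -1.60 ± 0.47 (SE, adjusted p = 0.019), were lost in 15 and 10 of 18 settings. They were lost without Blue, at -1.44 (adjusted p = 0.26) and -1.71 (adjusted p = 0.13), and without Red, at -1.38 (adjusted p = 0.27) and -1.83 (adjusted p = 0.1). The Mrgprd call was also lost without Control1, at -1.34 (adjusted p = 0.068), Control2, at -1.13 (adjusted p = 0.1), or Control6, at -1.13 (adjusted p = 0.11), and the Sst/Nppb call without Control, at -1.13 (adjusted p = 0.095). In both contrasts the mean of the others includes Calca. In pairs, Mrgprd was not told apart from Mrgpra3 (adjusted p = 0.999) or Sst/Nppb (adjusted p = 0.82), nor Mrgpra3 from Sst/Nppb (adjusted p = 0.67). Sst/Nppb was below Th, at -2.26 ± 0.71 (SE, adjusted p = 0.035).

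Of the Eph receptors, Epha5 (chr5:84054761-84417382, minus strand), a kinase that binds A-type ephrins, had its highest levels in the Calca and Mrgpra3 classes. It was at 10.3 to 51.1 CPM (median 28.7) in Calca and 16.4 and 24.4 CPM in Mrgpra3. It was at 0 to 8.82 CPM (median 3.33) in Mrgprd, 0 and 2.21 CPM in Th and 0 CPM in all 4 mice in Sst/Nppb. No mouse of Calca or Mrgpra3 lay within the range of the other 3. Epha5 was higher in Calca by 1.71 ± 0.28 (SE, adjusted p = 0.00022) and lower in Sst/Nppb, at -1.29 ± 0.31 (SE, adjusted p = 0.0045), where 0 of 45 cells had a count (up to 6.67% allowed). Calca and Mrgpra3, at -0.20 ± 0.45 (SE, adjusted p = 0.98), were not told apart, and the Mrgpra3 contrast, at 1.46 ± 0.40 (SE, adjusted p = 0.057), did not pass. In the Sst/Nppb contrast the mean of the others includes Calca and Mrgpra3. Sst/Nppb was not told apart from Mrgprd, at 0.44 ± 0.35 (SE, adjusted p = 0.4) for Mrgprd minus Sst/Nppb. Nor was it told apart from Th, at -0.14 ± 0.47 (SE, adjusted p = 0.89) for Sst/Nppb minus Th. The Calca call was lost without Blue, at 1.49 (adjusted p = 0.08), and the Sst/Nppb call without Blue, at -1.36 (adjusted p = 0.11), or Red, at -1.11 (adjusted p = 0.21).

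Ephb6 (chr6:41605482-41620509, plus strand), an Eph receptor whose kinase is inactive, was at 86.98 and 69.7 CPM in Mrgpra3 and 24.7 to 47.6 CPM (median 30.3) in Calca. It was at 20.2, 33.8, 7.84 and 0 CPM in Sst/Nppb, 7.45 to 29.9 CPM (median 12.3) in Mrgprd and 5.46 and 3.31 CPM in Th. Both Mrgpra3 mice lay above all others, and 43 of 44 Mrgpra3 cells had a count against 5 of 39 Th cells. It was lower in Th, at -1.98 ± 0.53 (SE, adjusted p = 0.023). Mrgpra3 exceeded Th by 3.15 ± 0.68 (SE, adjusted p = 0.005), although the Mrgpra3 contrast itself, at 1.97 ± 0.53 (SE, adjusted p = 0.052), did not pass. The Th call was lost without Blue, at -2.14 (adjusted p = 0.48), or Red, at -1.81 (adjusted p = 0.61).

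Of the 3 ephrins tested, 2 were higher in Th and 1 lower. Efnb1 (chrX:99136130-99148991, plus strand), a transmembrane ligand of EphB receptors, was at 59.9 and 53.6 CPM in Th and 9.72 to 30.9 CPM (median 17.6) in Mrgprd. It was at 0.885 and 4.92 CPM in Mrgpra3, 0, 0, 7.84 and 0 CPM in Sst/Nppb and 0 to 15.7 CPM (median 5.24) in Calca. The Th mice lay above every other mouse. The contrasts were 2.52 ± 0.53 (SE, adjusted p = 0.0035) in Th and -1.60 ± 0.40 (SE, adjusted p = 0.0068) in Sst/Nppb, where the mean of the others includes Th. In pairs, Sst/Nppb was below Mrgprd (adjusted p = 0.0036) and Th (adjusted p = 0.00067). It was not told apart from Mrgpra3 (adjusted p = 0.88) or Calca (adjusted p = 0.18). The Th call was lost without Blue, at 2.41 (adjusted p = 0.35), or Red, at 2.64 (adjusted p = 0.32), and the Sst/Nppb call likewise, at -1.55 (adjusted p = 0.12) and -1.39 (adjusted p = 0.18).

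Efna5, a membrane-anchored ligand of EphA receptors, was at 137 ± 5.10 CPM (SD, n = 2) in Th and 30.5 ± 14.9 CPM (SD, n = 6) in Calca. It was higher in Th by 1.46 ± 0.44 (SE, adjusted p = 0.043) and lower in Calca, at -1.01 ± 0.30 (SE, adjusted p = 0.032), where its receptor gene Epha5 was high. The Th call was lost without Blue, at 1.43 (adjusted p = 0.7), or Red, at 1.49 (adjusted p = 0.71). The Calca call was lost without Blue, at -0.78 (adjusted p = 0.46), Red, at -1.17 (adjusted p = 0.19), or Control6, at -0.83 (adjusted p = 0.075). Efna1 (chr3:89271733-89281142, minus strand), of the same subclass, went the other way. It was at 20.004 and 22.3 CPM in Th, 57.8 and 82.9 CPM in Mrgpra3 and 43.8 to 108.4 CPM (median 65.9) in Mrgprd. In Calca it was 40.8 to 83.9 CPM (median 61.9) and in Sst/Nppb 35.2, 39.8, 15.7 and 60.7 CPM, and only Sst/Nppb mice overlapped Th. It was lower in Th, at -1.25 ± 0.36 (SE, adjusted p = 0.033), a call lost without Blue, at -1.27 (adjusted p = 0.65), or Red, at -1.24 (adjusted p = 0.72).

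Robo2 (chr16:73891839-74411825, minus strand), a receptor for Slits, was present in 4 classes and low in most Sst/Nppb cells. It was at 169.7 to 247 CPM (median 196) in Mrgprd, 189 and 209 CPM in Th and 75.04 and 88.5 CPM in Mrgpra3. In Calca it was 64.7 to 187 CPM (median 95.4) and in Sst/Nppb 4.88, 18.9, 183 and 91.1 CPM. The Sst/Nppb mice spread widely, and the 183 CPM of Control come mostly from 1 count in the shallow cell, and 12 of 45 cells had a count. The Sst/Nppb difference was -1.93 ± 0.39 (SE, adjusted p = 0.0011). It was lost without Blue, at -1.28 (adjusted p = 0.056), and was larger with cells thinned to 10000 counts, at -3.56 (adjusted p = 0.00012). Sst/Nppb was below Mrgprd and Th in pairs, at 2.19 ± 0.43 (SE, adjusted p = 0.00094) for Mrgprd minus Sst/Nppb. It was not told apart from Mrgpra3, at 1.54 ± 0.58 (SE, adjusted p = 0.14) for Mrgpra3 minus Sst/Nppb. Nor was it told apart from Calca, at -1.21 ± 0.43 (SE, adjusted p = 0.052) for Sst/Nppb minus Calca.

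Slit1 (chr19:41600257-41743665, minus strand), a secreted ligand of Robo receptors, was at 77.5 and 74.3 CPM in Th. It was at 7.23 to 13.01 CPM (median 12.1) in Mrgprd, 15.6, 22.6, 7.84 and 0 CPM in Sst/Nppb, 0 to 21.2 CPM (median 5.39) in Calca and 2.88 and 1.46 CPM in Mrgpra3. Both Th mice lay above every other mouse, and 35 of 39 Th cells had a count. The Th contrast was 2.62 ± 0.50 (SE, adjusted p = 0.0017). It was lost without Blue, at 2.62 (adjusted p = 0.25), or Red, at 2.61 (adjusted p = 0.26), and held in the other 17 settings.

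Among netrin receptors only Unc5d (chr8:28646717-29219636, minus strand) passed the filter. It was at 5.78 to 43.8 CPM (median 19.04) in Calca, 17.1 and 23.3 CPM in Mrgpra3 and 0 to 2.41 CPM (median 0) in Mrgprd. In Th it was 6.11 and 0 CPM and in Sst/Nppb 4.35, 4.34, 0 and 58.2 CPM, where the value of Control1 stands apart. It was lower in Mrgprd, at -1.44 ± 0.44 (SE, adjusted p = 0.032), with 3 cells of the class holding a count. That call was lost without Blue, at -1.29 (adjusted p = 0.37), Red, at -1.55 (adjusted p = 0.2), or Control2, at -1.45 (adjusted p = 0.056).

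**Figure D4:**
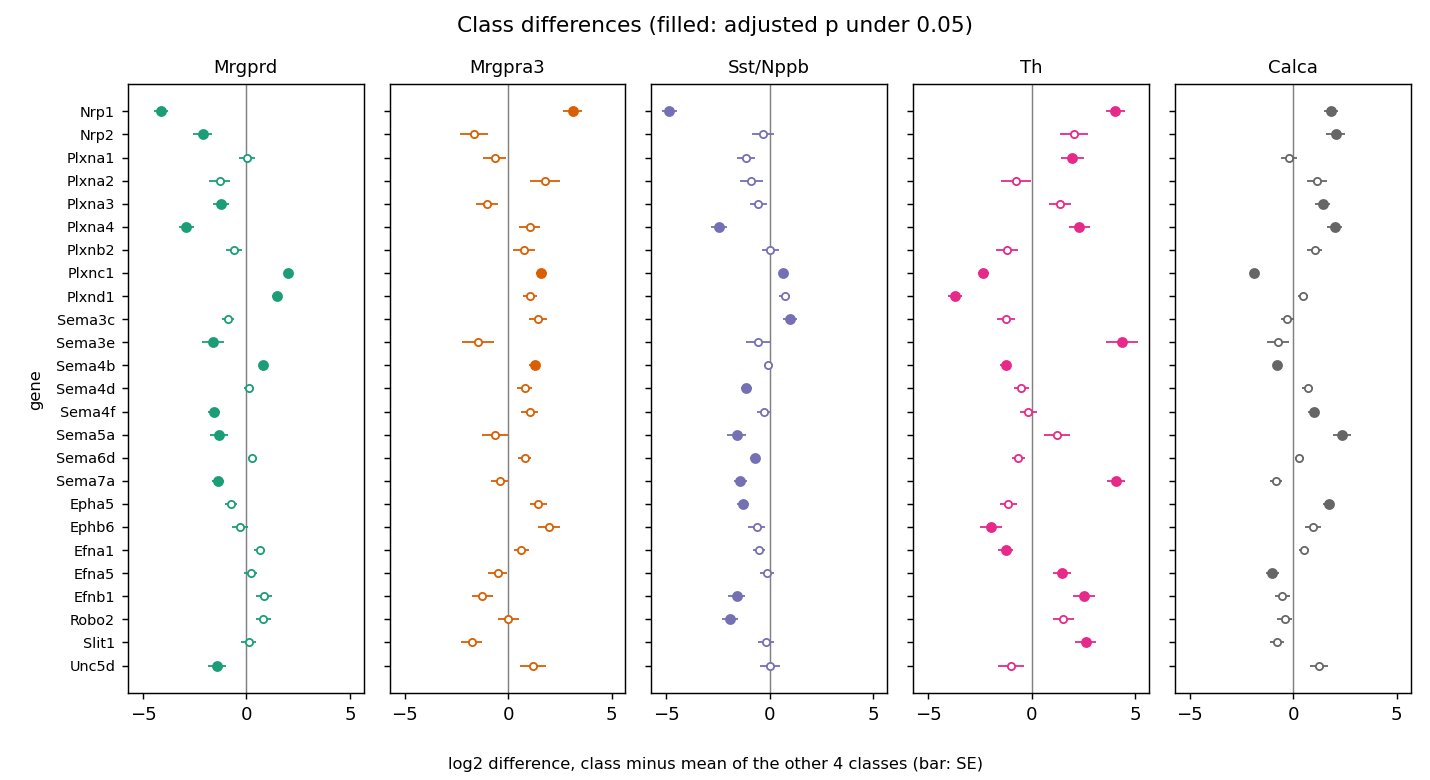
Difference of each class from the mean of the other 4, in log2(mean CPM + 5), for the 25 tested genes. Bars are 1 SE, filled points have an adjusted p under 0.05 (limma). Th has the widest spread, from -3.69 for Plxnd1 to 4.38 for Sema3e, and Mrgpra3 has 3 filled points.

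The Th class was the one with the most calls and rests on 2 mice of 1 run, so its cells in the other 4 mice, 1 or 2 cells each and in no fit, are given beside it. Sema7a was at 58.5 to 102.96 CPM in them, Sema3e at 76.3 to 153 CPM and Slit1 at 34.3 to 95.5 CPM. Nrp1 was at 531 to 1201 CPM and Efna5 at 142 to 446 CPM. All of these lay on the side of Blue and Red, above every mouse of another class in the comparison, except that Control in Sst/Nppb was higher for Sema3e. Efnb1, at 0 to 137 CPM, and Plxna1, at 0 to 109.5 CPM, were not above the other classes in each of these mice. Plxnd1 was at 0 to 30.6 CPM and Plxnc1 at 0 to 237 CPM. The same 4 mice gave 2 Mrgpra3 cells each, with Nrp1 at 256.9, 0, 394 and 240.3 CPM and Plxnc1 at 704 to 1203 CPM. For the classes found in all runs, the difference between Mrgprd and Calca had the same sign in run 1 and in runs 2 to 4 for all 25 genes. A test of whether it differed between them (limma, interaction of class and run) passed for 0 of 25 genes after adjustment and for 0 at an unadjusted p under 0.05. It passed for 0 of all 9148 genes after adjustment, so it does not show that the runs are alike.

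**Figure D5:**
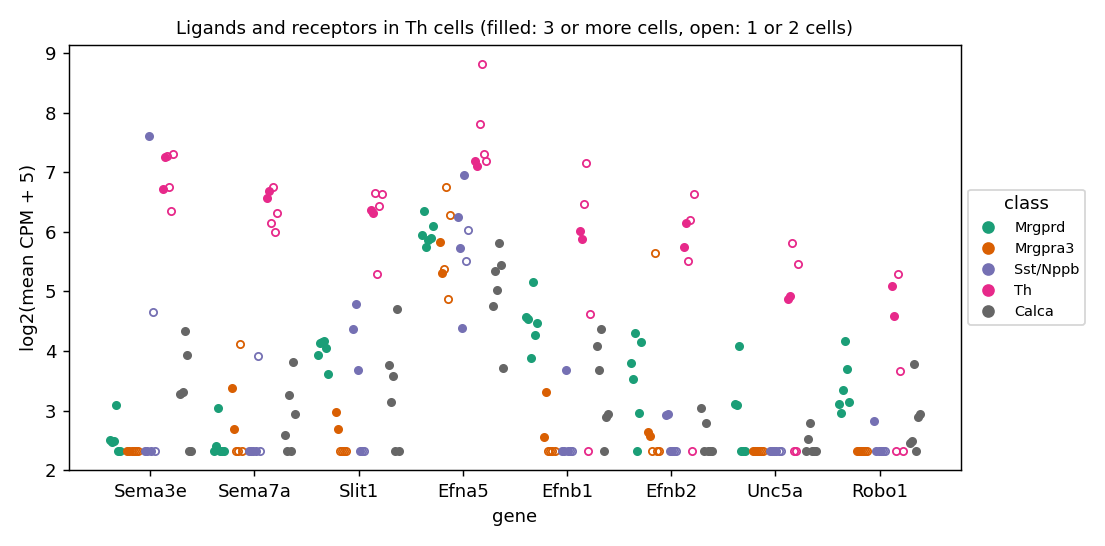
Level of 8 ligands and receptors, as log2(mean CPM + 5), by gene and class. Each point is 1 mouse (filled, 3 or more cells; open, 1 or 2 cells). The Th points stand above the other classes for Sema7a and Slit1, and the lone high Sst/Nppb point of Sema3e is mouse Control.

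The 44 genes below the filter included Dcc, found in 1 of the 337 cells, all 4 netrins and 12 Eph receptors. Efna3, Epha1, Ntn4, Robo3, Robo4 and Sema3g had no count in any of the 337 cells. The highest class mean among the 44 was Efnb2, a transmembrane ephrin, at 57.5 ± 12.4 CPM in Th. With no filter, 37 of the 44 could be tested and 4 were higher in Th, a contrast that called 6.16% of all genes without the filter. These were Efnb2, at 2.98 ± 0.36 (SE, adjusted p = 0.00015), the netrin receptor Unc5a, at 2.36 ± 0.26 (SE, adjusted p = 5.6e-05), the Slit receptor Robo1, at 2.24 ± 0.36 (SE, adjusted p = 0.0016), and Sema4g, at 1.98 ± 0.24 (SE, adjusted p = 0.00017). Efnb2 was at 48.7 and 66.3 CPM in the Th cells of Blue and Red and at most 14.7 CPM in any mouse of another class. In Calca 4 calls were made, against 8.18% of all genes. Unc5c, a netrin receptor, at 1.59 ± 0.32 (SE, adjusted p = 0.0064), Sema4a, at 0.76 ± 0.19 (SE, adjusted p = 0.022), and Slit2, at 0.31 ± 0.09 (SE, adjusted p = 0.04), were higher, and Efnb2, at -1.04 ± 0.25 (SE, adjusted p = 0.021), was lower. Unc5c was found in 27 of 98 Calca cells. Epha4, at 0.76 ± 0.14 (SE, adjusted p = 0.01), was the 1 call in Mrgpra3 (2.37% of all genes), at a mean of only 3.56 CPM. In Mrgprd 0 of the 37 were called by limma without the filter (7.56% of all genes). An unadjusted p under 0.05 was found for 5, a share that was not counted over all genes. In Sst/Nppb 4 were lower (12.4% of all genes), namely Efnb2, Robo1, Unc5a and Unc5c, with class means of 0 to 1.31 CPM. Other classes were as low. Mrgpra3 was at 1.10 CPM of Efnb2 and 0 of Robo1 and Unc5a, and Th at 0 of Unc5c. The mean of the others includes Th, at 57.5 CPM of Efnb2, 24.1 of Robo1 and 24.8 of Unc5a. It also includes Calca, at 22.1 CPM of Unc5c. The lower Efnb2 call in Calca likewise has Th in the mean of the others.

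Other genes of the same pathways were read from 2 lists. Of 30 co-receptors and adhesion partners, 19 were tested. The share of all genes called is given with each count. The list had 16 calls of 19 in the F test (29.8%), 8 in Mrgprd (3 higher, 5 lower, 13.6%), 2 in Mrgpra3 (both lower, 3.04%), 11 in Sst/Nppb (1 higher, 10 lower, 23%), 5 in Th (all higher, 9.03%) and 7 in Calca (6 higher, 1 lower, 12.8%). Its median difference was -0.93 in Sst/Nppb (-0.16 over all genes), 0.52 in Th (0.04) and 0.49 in Calca (0.06). The 3 genes with the smallest F test p-value were Flrt1, Lingo1 and Ptprs. Flrt1, whose family binds Unc5 receptors, was at 131 ± 90.2 CPM (SD, n = 6) in Calca and at most 20.48 CPM in the other class means, a Calca difference of 3.15 ± 0.33 (SE, adjusted p = 1.4e-06). Lingo1, a subunit of the Nogo receptor complex, was at 206 ± 26.7 CPM (SD, n = 2) in Th and 89.9 ± 7.80 CPM (SD, n = 6) in Mrgprd, and at 0 in the Sst/Nppb class. It was higher in Th by 3.55 ± 0.52 (SE, adjusted p = 0.00012) and in Mrgprd by 2.23 ± 0.36 (SE, adjusted p = 0.00017), and lower in Mrgpra3, at -2.42 ± 0.52 (SE, adjusted p = 0.011), and Sst/Nppb, at -2.99 ± 0.40 (SE, adjusted p = 1.6e-05). Ptprs, a receptor for chondroitin sulphate proteoglycans, was lower in Mrgprd, at -2.26 ± 0.28 (SE, adjusted p = 8.4e-06), and higher in Calca, at 1.49 ± 0.28 (SE, adjusted p = 0.00082).

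Of 50 intracellular effectors, 40 were tested and 20 were called in the F test (29.8% of all genes). Their calls were 9 in Mrgprd (5 higher, 4 lower, 13.6%), 3 in Mrgpra3 (2 higher, 1 lower, 3.04%), 12 in Sst/Nppb (5 higher, 7 lower, 23%), 10 in Th (4 higher, 6 lower, 9.03%) and 9 in Calca (6 higher, 3 lower, 12.8%). Their median differences lay between -0.24 in Sst/Nppb and 0.18 in Calca. Mical1, an actin oxidase that acts downstream of plexins, was at 409 ± 79.05 CPM (SD, n = 4) in Sst/Nppb and 2.18 ± 3.08 CPM (SD, n = 2) in Th. It was higher in Sst/Nppb by 3.32 ± 0.27 (SE, adjusted p = 2.8e-08) and in Mrgpra3 by 1.77 ± 0.35 (SE, adjusted p = 0.0059), and lower in Th, at -4.20 ± 0.35 (SE, adjusted p = 1.6e-07), and Calca, at -1.05 ± 0.24 (SE, adjusted p = 0.0053). Ablim1, an actin-binding LIM protein, was lower in Mrgprd, at -1.93 ± 0.18 (SE, adjusted p = 3.0e-07), and higher in Calca, at 1.03 ± 0.18 (SE, adjusted p = 0.0005). Enah, which extends actin filaments, was at 6.50 ± 9.14 CPM (SD, n = 4) in Sst/Nppb, with a difference of -3.32 ± 0.35 (SE, adjusted p = 7.1e-07), and higher in Calca by 1.64 ± 0.31 (SE, adjusted p = 0.00099).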

How the data were processed

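Single tdTomato+ DRG neurons of 6 mice were measured by RNA sequencing. Reads were aligned with STAR 2.7.3a to mm10, per the submitters' processing notes; the counter, annotation, strand and scaling are not given in the sources used here. The authors deposited 1 signal value per gene and cell, which is a count times a factor of the cell. Counts were recovered by dividing by the most frequent nonzero value of a cell, and low values came out whole within 0.1 for a median of 96.4% of them; whole reads were claimed in 252 of 394 columns. The labels list 400 cells and the other 6 were not analysed here. Rn45s (7.42% of the signal on average) and 26 entries holding dates in place of gene symbols (0.154%) were left out. Cells kept had 918 to 324984 counts (median 30366), and the 23 left out had at most 383.

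Means of CPM per mouse and class (at least 3 cells) were tested as log2(mean + 5) with limma 3.58.1 (trended prior, mouse as a block, genes averaging 10 CPM or more, gate genes left out), in R 4.3.3. The mouse is a block because the classes come from the same mice. Alternatives included another pseudocount, no filter, other gates, thinned cells, edgeR 4.0.16 on recovered counts and each mouse left out. The fit was also run on simulated counts with genes changed in Th. These held no differences between mice and no single cells, and the outcome is not given here. Positions are from GENCODE vM21 (GRCm38, the build of mm10), and 67 of 69 genes have one listed here. Named genes are every tested gene past an adjusted p of 0.05 in a class contrast, with values by mouse for the 20 of smallest F test p, and the first 3 of each pathway list. Efnb2, Unc5a, Robo1, Sema4g, Unc5c, Sema4a, Slit2 and Epha4 were named after their values were seen. The genes, lists, gates and tests were chosen with earlier results of these data known.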

Additional observations from a re-analysis of the deposited data

Results flagged for a closer look

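A mouse that stands apart from the others of its class was found in 10 of 71 pairs of a gene and a class with 4 to 6 mice. The gap test used (Dixon) flags about 1 in 20 groups by chance where values are normally distributed. Mean CPM is bounded at 0 and many of the means were at or near 0, so that rate does not apply here. Of the 10 mice standing apart 6 were Control, 3 Control1 and 1 Control2, and all stood high. In the Mrgprd class, Control was at 27.1 CPM of Nrp1 (others 0 to 1.31), at 3.20 CPM of Sema7a (0 to 0.317) and at 16.4 CPM of Sema5a (0 to 2.48). Control2 was at 65.5 CPM of Plxna4 (others 0 to 5.24), and Control1 at 3.51 CPM of Sema3e (0 to 0.708). In the Sst/Nppb class, Control was at 183.3 CPM of Nrp2 (0 to 7.13), 191.2 CPM of Sema3e (others all 0) and 7.84 CPM of Efnb1 (others all 0). Control1 was at 58.2 CPM of Unc5d (0 to 4.35) and 14.7 CPM of Plxna1 (0 to 2.36). The Control and Control1 values in Sst/Nppb are each means over 4 cells. In Control the 4 Sst/Nppb cells had 30712, 31795, 1412 and 7646 counts, and 1 count in the shallowest equals 701 CPM.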

How the results depend on the processing

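The main test called 25 axon guidance genes for any difference, 12 in Mrgprd, 3 in Mrgpra3, 11 in Sst/Nppb, 13 in Th and 10 in Calca. No call of a gene reversed in any of 19 settings. Of 49 calls, 7 were tested and passed in all 19, and 2 more (Sema7a in Th, Sema5a in Calca) passed wherever tested. The share of all genes called in the same setting stands in brackets. Without the replicate block by mouse, 45 of the 49 paired calls passed, and the Mrgpra3 count was 6 (3.66%). The Mrgpra3 count was also 5 with no filter (2.37%) or with cells low in glial markers (4.45%), 6 with overlapping gates (4.6%), 7 with log values averaged over cells (3.9%), 14 with at least 5 cells per mouse (8.83%), 17 with edgeR (13.8%) and 19 in run 1 alone (17.9%). In Th, edgeR (23.2%) and the 5-cell minimum (18.5%) each called 20, and run 1 alone 26 (32.1%); run 1 alone called 17 in Calca (21.2%). With cells thinned to 10000 counts, 22 of the 46 calls that could be tested were lost, and 3 genes were called in Sst/Nppb (6.52%), the shallowest class. Leaving out 1 mouse gave 11 to 25 genes for any difference, 5 to 16 in Mrgprd, 0 to 9 in Mrgpra3, 2 to 14 in Sst/Nppb, 3 to 18 in Th and 5 to 12 in Calca, with the lowest counts without Blue or Red. In each of these comparisons the share of all genes called was also lowest without Blue or Red. The drop was thus not limited to the axon guidance genes. Leaving out another mouse gave shares of 27.3 to 31.9% for any difference, 11.9 to 15.5% in Mrgprd and 3.01 to 5.05% in Mrgpra3. They were 21.1 to 25% in Sst/Nppb, 8.83 to 12.5% in Th and 11.2 to 14.9% in Calca. Runs 2 to 4 alone could not be fitted with at least 3 cells per mouse, since no Mrgpra3 or Th mouse remained. With at least 2 cells, chosen after seeing the data, they called 13 for any difference (15.8%), 2 in Mrgprd (3.21%), 4 in Sst/Nppb (11%), 7 in Th (4.78%) and 5 in Calca (4.13%), and all 6 mice with at least 2 cells called 13 in Mrgpra3 (11.9%). The cause of these shifts was not tested, beyond the smaller number of mice or cells.

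Cells of 1 mouse share their dissociation and run. Replicates are mice, but 2 in Mrgpra3 and Th, so the test there rests on a spread pooled over classes. Low genes are limited by depth: 1 count in a cell of median depth in Sst/Nppb is a large CPM value, so a gene without a count there is undetected, not shown to be absent. The overlap of antisense genes with Plxna1 and Plxna4, and of genes on the same strand with Plxnc1 (Gm48718) and Nrp1 (Mir1903), is unresolved.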
